A study of Homo sapiens with 4 samples.

Results

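Translation initiation and elongation factors are the proteins that bring ribosome, initiator tRNA and mRNA together and that move the ribosome along the coding sequence. The members were the protein-coding genes whose symbol begins with EIF1 to EIF6 or with EEF, without the eIF2 kinases (EIF2AK) and the eIF4E-binding proteins (EIF4EBP). They numbered 65 of 58560 genes. The rule reads symbols and no measured values, but it was chosen with earlier results of these data known. Of the 65 members, 62 passed the filter on low counts and were tested. EIF4E1B was at 0 in all libraries, and the read-through genes EEF1E1-BLOC1S5 and EEF1AKMT4-ECE2 had no count in the deprived libraries and almost none in the controls. EIF1AY, which lies on the Y chromosome, is counted among the members and its values are not printed.

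RNA was sequenced from A549 cells, a line established from a human lung adenocarcinoma, either deprived of glutamine (2 libraries) or kept as controls (2 libraries). Deprived cells had been rinsed with PBS and moved to DMEM without glutamine that contained serum, for 24 h in deprived replicate 1 and 25 h in deprived replicate 2 by the sample labels, although the protocol states 24 h for both. The control labels give "none" as treatment and do not mention a rinse or a medium change, so the loss of glutamine and the handling cannot be told apart. The labels do not say that the libraries of a group came from separate cultures, so p-values measure the spread between these libraries, which may be technical. The design asked which genes differ in expression between cells without glutamine and cells in complete medium.

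Initiation begins when eIF2, carrying GTP and the initiator tRNA, joins the small ribosomal subunit with eIF1, eIF1A, eIF3 and eIF5. The eIF4 factors bind the cap of the mRNA and unwind its leader, and the complex scans for a start codon. When amino acids are short, kinases phosphorylate the alpha subunit of eIF2, which then blocks its exchange factor eIF2B, so that general initiation slows while some stress mRNAs are translated better. During elongation eEF1A delivers aminoacyl-tRNA and eEF2 moves the ribosome on by a codon, and the mRNAs of several of these factors begin with a run of pyrimidines that ties their translation to mTORC1.

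The deposited estimated counts totalled 123414592 and 120425759 in the deprived and 101496318 and 101982373 in the control libraries. The epithelial keratin genes KRT8 and KRT18 were abundant in all libraries, EPCAM was at 0.498 and 0.756 CPM in deprived and 2.21 and 2.71 CPM in control libraries, and all 5 epithelial markers examined were lower in deprived cells, with summed levels of 2019 and 1730 counts-per-million (CPM) in deprived against 7570 and 7681 CPM in control libraries. Of 7 alveolar type II markers, 5 were under 1 CPM in all libraries, as were all 6 fibroblast and all 5 endothelial markers. Blood markers summed to 21.0 CPM in control replicate 1, mostly HBA1 and HBB, and to at most 0.452 CPM in the other libraries. The part of these markers in the results was not tested, and in bulk RNA fewer cells with a transcript and less of it per cell cannot be told apart. CPM are scaled by TMM, a factor that sets the bulk of genes level between libraries, unless another scaling is named.

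Most of the factors had more RNA in deprived cells, and a few had much less. In edgeR's quasi-likelihood test, adjusted over all genes after Benjamini and Hochberg, 35 of 62 tested members (56.5%) were higher and 8 (12.9%) were lower at an adjusted p under 0.05, while 19 were not called. Among all 24527 genes tested, 25.2% were higher and 24.4% lower, and among protein-coding genes 34.3% and 29.8%. The members are well expressed, so the closer comparison is with protein-coding genes of at least 10 CPM on average. In that class 34 of 58 members (58.6%) were higher and 8 (13.8%) were lower, where 46.3% of all such genes were higher and 28.5% lower. By at least 2-fold, 10 members were higher and 2 lower, which is 16.1% and 3.23% of the 62 tested. Decreases of that size were rare, beside 15.3% of all genes and 11% in the class of at least 10 CPM. Increases of that size were not, beside 12.4% of all genes and 17.6% in that class. These member shares are of all 62 tested and not of the 58 in the class. The 2 deprived libraries lay apart from the 2 controls for 52 of these 58 members (89.7%), against 89.1% of all protein-coding genes of that level.

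**Figure D1:**
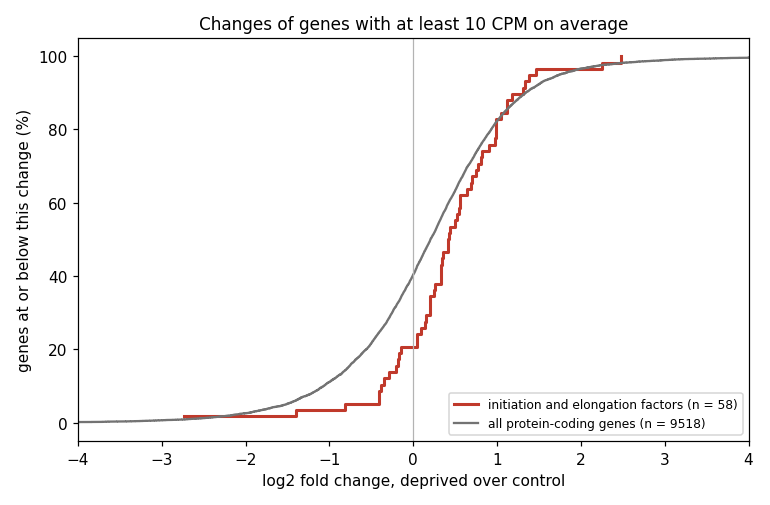
Cumulative share (vertical axis, percent) of genes at or below a given log2 fold change, deprived over control (horizontal axis), for the 58 members of at least 10 CPM (red) and for all 9518 protein-coding genes of that level (grey). The red curve lies below the grey one from about -2 up to about 1, since a smaller share of the members was low, and the curves run close together above it.

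The median log2 fold change of the members was 0.42, beside -0.06 for all genes, 0.01 for protein-coding genes and 0.20 for protein-coding genes of at least 10 CPM. These values hang on how the libraries are scaled. With library size only, the median of all genes was -0.40 and that of the members 0.08, and 23 members were called higher and 13 lower, beside 17% and 34.9% of all genes. The 12 members that lost the call were EIF2B1, EIF2B4, EIF2B5, EIF3C, EIF3CL, EIF3I, EIF3M, EIF4A3, EIF5A, EIF5B, EEF1B2 and EEF1AKMT2, and 5 members without a call with TMM (EIF2D, EIF3L, EIF4G3, EEF1D and EEF2KMT) became lower. In 15 alternative analyses, 20 members stayed higher and 4 lower in each. Without control replicate 2 the number of lower members was 5 instead of 8. The members together took 2.23% and 2.11% of the counts of the deprived and 2.02% and 2.16% of those of the control libraries, so the groups overlapped. Without EEF1A1 they took 1.39% and 1.34% in deprived libraries, above both control libraries (at most 1.22%).

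**Figure D2:**
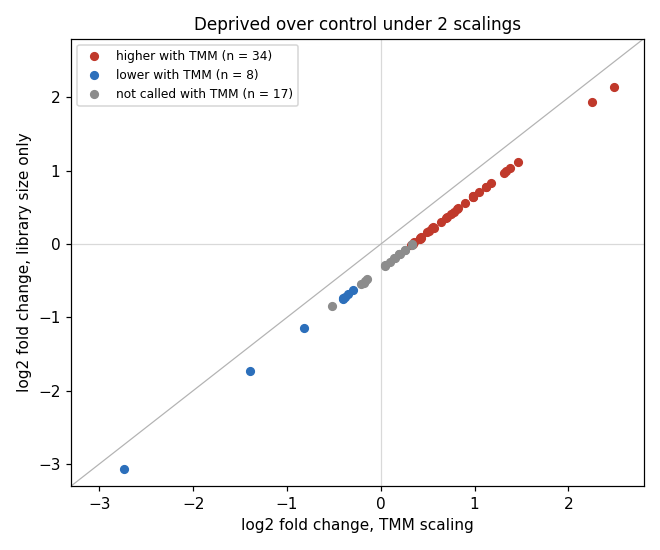
Log2 fold change, deprived over control, with TMM scaling (horizontal axis) and with library size only (vertical axis), 1 point per member of at least 1 CPM whose values are printed, coloured by its call with TMM. All points lie below the grey line of equal values by about the same distance, so members near 0 on the horizontal axis fall below 0 on the vertical axis while EIF1 at the top right and EEF2K at the bottom left keep their place.

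The genes grouped as start codon factors rose together, with EIF1AD placed among them for its eIF1A domain. All 5 of 5 tested members were higher, beside 46.3% of protein-coding genes of at least 10 CPM, with a median log2 fold change of 1.12. All 5 kept the call with library size only, where 17% of all genes were higher. EIF1, which holds the scanning ribosome open until a start codon is found, was at 1215 and 1129 CPM in deprived and at 214 and 205 CPM in control libraries. The groups were far apart for this gene, with a log2 fold change of 2.48 ± 0.09 (SE) and an adjusted p of 1.58e-05 by edgeR, the largest increase among the members. Over the alternatives its adjusted p was at most 0.000216. EIF1B, the close paralog of EIF1 on chromosome 3, was at 42.4 and 38.4 CPM in deprived and 17.6 and 18.1 CPM in control libraries (1.18 ± 0.08). EIF1AD, a protein with an eIF1A domain, was at 74.2 and 66.4 CPM against 32.2 and 32.6 CPM in controls (1.12 ± 0.08). EIF1AX, the eIF1A that steadies scanning, changed less (0.74 ± 0.09). In each of these genes the deprived pair lay wholly above the control pair. EIF1AD shares 98 exon bases with BANF1 on the opposite strand, and the strand setting of the counts is not given in the sources used here, so reads of overlapping genes on opposite strands cannot be told apart.

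**Figure D3:**
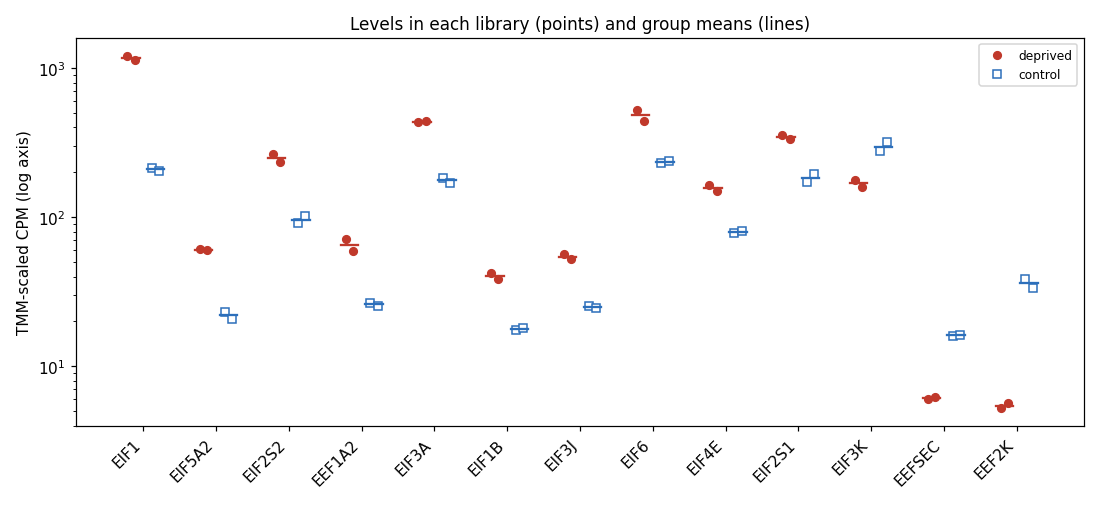
TMM-scaled CPM on a log axis for 13 members, with 1 point per library and a line at the mean of the 2 libraries of a group (deprived filled, control open). EIF1 stands at 1215 and 1129 CPM in deprived against 214 and 205 CPM in control libraries, and EIF3K, EEFSEC and EEF2K are the genes shown with the deprived points below the control points.

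All 3 subunits of eIF2 were higher. EIF2S1 encodes the alpha subunit, the target of the stress kinases, and was at 356 and 332 CPM in deprived and 173 and 196 CPM in control libraries (log2 fold change 0.90 ± 0.09, edgeR adjusted p = 0.000415). EIF2S2, the beta subunit that contacts eIF5 and eIF2B, was at 267 and 235 CPM in deprived against 91.4 and 102 CPM in control libraries. Its change of 1.38 ± 0.10 was above that of EIF2S3, the gamma subunit that binds GTP and the initiator tRNA (0.69 ± 0.09), though the difference between subunits was not tested. EIF2S1 overlaps 269 exon bases of ATP6V1D on the other strand, which was itself at 156 and 139 CPM in deprived and 40.0 and 46.5 CPM in control libraries. EIF2A, a separate protein that can deliver initiator tRNA outside the eIF2 pathway, was higher (0.81 ± 0.08), and it overlaps SERP1 by 153 bases. EIF2D, which can also load tRNA on the ribosome, was at 42.1 and 37.5 CPM in deprived and 45.3 and 46.8 CPM in control libraries and was not called (-0.21 ± 0.08, edgeR adjusted p = 0.0849), but it was lower with upper-quartile scaling, with a filter of 50 counts in 2 libraries and without deprived replicate 1. EIF2S3B, a gene that resembles EIF2S3, stayed under 1 CPM and was not called. Over the 6 genes 4 were higher and the median change was 0.86.

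The exchange factor eIF2B, which recharges eIF2 with GTP, shifted by less. Of its 5 subunits 4 were higher, with a median log2 fold change of 0.41, and with library size only 1 was. EIF2B2, the beta subunit, kept its call in that setting and had the largest change, at 64.6 and 54.6 CPM in deprived against 32.8 and 34.5 CPM in control libraries (0.82 ± 0.10). EIF2B1 (0.52 ± 0.07) and EIF2B4 (0.41 ± 0.07) encode the alpha and delta subunits, and EIF2B4 also lost its call without control replicate 2 and with coding transcripts only (0.19, edgeR adjusted p = 0.198). EIF2B1 overlaps 536 exon bases of DDX55 on the opposite strand, which was at 53.2 and 55.0 CPM in deprived and 31.8 and 29.9 CPM in control libraries. EIF2B5 carries the catalytic centre and was at 51.0 and 48.9 CPM in deprived and 38.4 and 39.6 CPM in control libraries (0.36 ± 0.07, edgeR adjusted p = 0.00704). Between 1.78% and 9.22% of its counts per library sat on transcripts annotated as protein coding, 1 of its 2 principal transcripts is not among the matched transcripts, and with protein-coding transcripts only it was not called (edgeR adjusted p = 0.742), nor was it without control replicate 1. EIF2B3, the gamma subunit, had an adjusted p of 0.0544 by edgeR (0.33 ± 0.11) and was called higher by DESeq2, with RLE scaling and without deprived replicate 2.

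The subunits of eIF3, the large scaffold on the small ribosomal subunit, went in both directions. Of 14 tested genes 8 were higher and 3 lower with a median log2 fold change of 0.42, and with library size only 4 were higher and 4 lower. EIF3A, the largest subunit and the core on which others assemble, was at 433 and 443 CPM in deprived and 184 and 169 CPM in control libraries (1.31 ± 0.08, edgeR adjusted p = 6.20e-05). EIF3J, a loosely bound subunit at the mRNA channel, was at 56.6 and 52.2 CPM against 25.5 and 24.5 CPM in controls (1.12 ± 0.08). EIF3D, a subunit that can itself bind the cap of some mRNAs, was at 369 and 302 CPM in deprived against 169 and 171 CPM in control libraries (0.98 ± 0.11). For each of the 3 the deprived libraries were clear of the controls. EIF3J overlaps 187 exon bases of SPG11 on the opposite strand, which was at 155 and 157 CPM in deprived and 90.0 and 90.5 CPM in control libraries. EIF3I (0.56 ± 0.10) and EIF3M (0.50 ± 0.09) changed by less. EIF3C (0.41 ± 0.10) and EIF3CL (0.43 ± 0.10) are near-identical copies whose reads the counting could divide either way, so their separate values are uncertain. EIF3C also lost its call with coding transcripts only and without control replicate 2.

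EIF3K, a small peripheral subunit, fell to 178 and 160 CPM in deprived libraries, against 277 and 317 CPM in control libraries (log2 fold change -0.82 ± 0.10, edgeR adjusted p = 0.000948). EIF3L, its partner in the complex, was at 131 and 84.8 CPM in deprived and 117 and 127 CPM in control libraries, so its deprived libraries fell on both sides of the controls and it was not called, although without deprived replicate 1 it was lower. EIF3B, a core subunit, was lower at 219 and 196 CPM in deprived against 280 and 272 CPM in control libraries (-0.41 ± 0.08). EIF3K and EIF3B kept their calls in all 15 alternatives. EIF3E was at 328 and 295 CPM in deprived and 378 and 437 CPM in control libraries (-0.39 ± 0.10), with an adjusted p up to 0.105 over the alternatives. Its call was lost with no filter, with the replicate block, without control replicate 2 and without deprived replicate 2. EIF3G (0.25 ± 0.09) and EIF3H (0.15 ± 0.10) were not called by edgeR, though EIF3G was called higher by DESeq2 and without deprived replicate 2.

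EIF3F has the second largest increase in the table, and its value is the least certain. It was at 14.2 and 22.3 CPM in deprived against 2.23 and 5.42 CPM in control libraries (log2 fold change 2.25 ± 0.44, edgeR adjusted p = 0.00693). Of its 2 principal transcripts 1 is not among the matched transcripts, so the sum is partial. What was counted lay mostly on transcripts marked retained intron or nonsense-mediated decay, and protein-coding transcripts held 0.744% and 47.0% of the counts in deprived and 5.10% and 3.85% in control libraries. With protein-coding transcripts only its edgeR adjusted p was 0.0911. With near-identical copies added its log2 fold change was 1.21 (edgeR adjusted p = 0.00568). The pseudogene copy EIF3FP1 had 667 and 1059 counts in deprived and 901 and 764 in control libraries.

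Among the cap-binding and eIF4 factors 5 of 12 tested genes were higher and 2 lower, with a median log2 fold change of 0.20 that became -0.14 with library size only. EIF4E, the cap-binding protein, was at 163 and 151 CPM in deprived and 77.8 and 80.6 CPM in control libraries (0.99 ± 0.07, edgeR adjusted p = 0.000137). EIF4A1, the main helicase that unwinds mRNA leaders, was at 1004 and 881 CPM in deprived against 434 and 518 CPM in control libraries (0.99 ± 0.12). EIF4H, a cofactor of that helicase, was higher by 0.78 ± 0.07, with the deprived pair at 293 and 295 CPM well above the controls at 168 and 175 CPM. EIF4A3, the related helicase of the exon junction complex, was higher by 0.34 ± 0.08, a call that did not hold without control replicate 2 or with library size only, and its sum is partial, since 1 of its 4 coding transcripts is not among the matched transcripts.

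None of the eIF4G scaffolds, which join cap and ribosome, was higher. EIF4G1, the main eIF4G, was at 124 and 130 CPM in deprived and 161 and 150 CPM in control libraries (log2 fold change -0.29 ± 0.07, edgeR adjusted p = 0.0183). It lost the call with the replicate block, without control replicate 1 and without deprived replicate 1. EIF4G2, a relative that lacks the EIF4E-binding site and serves cap-independent initiation, was at 2494 and 2217 CPM in deprived against 2089 and 2181 CPM in control libraries and was not called (0.14 ± 0.11), with 14 of its 15 coding transcripts matched. EIF4G3 (-0.15 ± 0.08) and EIF4B (0.20 ± 0.09), another helicase cofactor, were not called by edgeR either, though EIF4B was called higher by DESeq2 and limma-voom. EIF4E2, a cap-binding homologue that represses translation, was lower at 21.5 and 20.3 CPM in deprived against 26.3 and 29.2 CPM in control libraries (-0.41 ± 0.09). Its call was lost without control replicate 2 (edgeR adjusted p = 0.0770), and it overlaps TIGD1 on the opposite strand by 541 bases. EIF4E3 (0.20 ± 0.10) and EIF4ENIF1, which carries EIF4E into the nucleus and to RNA granules (0.04 ± 0.10), were not called.

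The 3 factors that act at subunit joining were all higher, 2 of them also with library size only. EIF6, which binds the large subunit and keeps it from joining too early, was at 524 and 441 CPM in deprived and 229 and 239 CPM in control libraries (log2 fold change 1.04 ± 0.10, edgeR adjusted p = 0.000398). EIF5, which triggers GTP hydrolysis by eIF2, was at 397 and 405 CPM in deprived against 240 and 252 CPM in control libraries (0.71 ± 0.07). EIF5B, the GTPase that brings the subunits together, was higher by 0.33 ± 0.08, and with library size only its value was -0.01. It also lost the call with upper-quartile scaling, with coding transcripts only (edgeR adjusted p = 0.0624) and without control replicate 2.

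In the eIF5A family, whose proteins carry hypusine and help the ribosome past difficult peptide bonds, 2 of 3 tested genes were higher, 1 of them (EIF5A2) also with library size only. EIF5A2, the minor form, was at 61.6 and 59.8 CPM in deprived and 23.3 and 20.8 CPM in control libraries (log2 fold change 1.46 ± 0.08, edgeR adjusted p = 5.48e-05). EIF5A, the main form, was at 311 and 276 CPM in deprived against 227 and 211 CPM in control libraries (0.42 ± 0.09). Per length EIF5A was still far above EIF5A2, with 399 and 391 transcripts-per-million (TPM) against 16.7 and 19.1 TPM in the deprived libraries. EIF5AL1 stayed under 1 CPM and was not called.

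The elongation factors differed among themselves. Of 6 genes grouped as eEF1A and its exchange complex 3 were higher and 1 lower (2 and 2 with library size only). With TMM the lower gene was EEF1E1, which belongs to the complex of tRNA synthetases. Of eEF2, its kinase and the selenocysteine factor none was higher and 2 of 3 were lower. EEF1A1, which carries aminoacyl-tRNA to the ribosome and is the most abundant member, was at 9682 and 8299 CPM in deprived and 7147 and 8546 CPM in control libraries. These groups overlapped, and EEF1A1 was not called (log2 fold change 0.20 ± 0.16, edgeR adjusted p = 0.346). It held 37.4% and 36.3% of all member counts in deprived and 40.5% and 43.6% in control libraries. Its tissue-restricted paralog EEF1A2 was at 71.4 and 59.7 CPM in deprived against 26.6 and 25.4 CPM in control libraries (1.33 ± 0.10, edgeR adjusted p = 0.000156). A retained-intron transcript, EEF1A2-206, held 36.4% and 26.8% of EEF1A2 counts in deprived and 12.5% and 11.2% in control libraries. With protein-coding transcripts only the change of EEF1A2 was 0.90.

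The exchange complex that recharges eEF1A showed smaller changes. EEF1B2, its catalytic subunit, was at 455 and 373 CPM in deprived and 252 and 313 CPM in control libraries (log2 fold change 0.55 ± 0.14), and lost the call with library size only, with no filter, without control replicate 1 and without deprived replicate 1. EEF1G was at 1083 and 876 CPM in deprived against 595 and 658 CPM in control libraries (0.64 ± 0.13). It shares 2714 exon bases with the gene ENSG00000255508 on its own strand, which was at 23.7 and 79.0 CPM in deprived and 178 and 232 CPM in control libraries. With that gene added EEF1G was not called (0.31, edgeR adjusted p = 0.0726). EEF1D was not called (0.05 ± 0.08). EEF1E1, a relative that belongs to the complex of tRNA synthetases, was lower at 22.5 and 22.6 CPM in deprived against 26.7 and 30.6 CPM in control libraries (-0.35 ± 0.09), a call lost with no filter and without control replicate 2, deprived replicate 1 or deprived replicate 2.

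The kinase of eEF2 had the largest decrease of all members. EEF2K, which phosphorylates eEF2 and so slows elongation, fell to 5.24 and 5.65 CPM in deprived libraries, against 38.8 and 33.6 CPM in control libraries. The log2 fold change was -2.73 ± 0.12 with an edgeR adjusted p of 2.30e-05, and it lay between -3.07 and -2.64 over the alternatives. Its single coding transcript EEF2K-201 held 93.3% to 99.3% of the counts. EEF2 itself, the substrate that moves the ribosome along the mRNA, was at 1123 and 1026 CPM in deprived and 894 and 909 CPM in control libraries and was not called by edgeR (0.25 ± 0.09, adjusted p = 0.0595), though it was by DESeq2 and limma-voom. EEFSEC, the factor that inserts selenocysteine at UGA codons, fell to 6.05 and 6.25 CPM in deprived libraries, against 16.0 and 16.3 CPM in control libraries (-1.39 ± 0.11). EEFSEC overlaps RUVBL1 on the opposite strand by 370 bases, and RUVBL1 was at 51.5 and 48.5 CPM in deprived and 55.0 and 55.1 CPM in control libraries.

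Of the 5 methyltransferases that modify eEF1A or eEF2, only EEF1AKMT2 was higher (log2 fold change 0.56 ± 0.17), and its call was lost in 8 of the 15 alternatives, library size only among them. EEF1AKMT1 (-0.52 ± 0.30), EEF1AKMT3 (0.09 ± 0.10), EEF1AKMT4 (0.33 ± 0.16) and EEF2KMT (-0.17 ± 0.11) were not called.

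Levels of different genes can be set side by side per length, as TPM computed from the counts and lengths of transcripts and not scaled by TMM. EEF1A1 was the highest member, at 4743 and 3408 TPM in deprived and 4067 and 4781 TPM in control libraries. EIF1 was at 927 and 1020 TPM in deprived against 250 and 210 TPM in control libraries and so ranked 4 among the members in deprived and 14 in control cells by the group mean. In deprived cells it stood beside EIF4A1 (967 and 974 TPM), EEF1G (1056 and 960 TPM) and EIF4G2 (995 and 1015 TPM). EIF3K moved the other way in this order and ranked 13 in deprived and 4 in control cells, at 343 and 313 TPM in deprived against 749 and 718 TPM in control libraries. Within eIF3, the order of levels also differed between groups. EIF3K was below EIF3E in deprived cells (371 and 384 TPM for EIF3E) and above it in control cells (562 and 574 TPM for EIF3E). EIF3A was at 98.3 and 116 TPM in deprived against 61.0 and 49.8 TPM in control libraries, well below both in either group.

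Transcripts of the same gene did not always follow the gene. Counts of single transcripts are estimates, since reads are divided among overlapping transcripts, so they are given as values with no test. EIF1 was carried in all libraries by its coding transcript EIF1-203, with 91711 and 88747 counts in deprived and 15387 and 14456 in control libraries. In EIF4A1 the main transcript EIF4A1-201 was at 689 and 587 CPM in deprived against 366 and 459 CPM in control libraries. A further coding transcript, EIF4A1-225, had 19696 and 20775 counts in deprived and 55 and 0 in control libraries, so that it was nearly confined to the deprived pair. The read-through gene SENP3-EIF4A1, which shares 1586 exon bases with EIF4A1 and is no member, was at 70.9 and 66.1 CPM in deprived and 5.47 and 6.64 CPM in control libraries (log2 fold change 3.50 ± 0.12, edgeR adjusted p = 1.49e-05).

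EIF4A2, the second helicase of the eIF4A type, was at 356 and 336 CPM in deprived and 167 and 184 CPM in control libraries (log2 fold change 0.98 ± 0.08, edgeR adjusted p = 0.000213). Only 2.58% to 5.59% of its counts per library fell on coding transcripts. Its nonsense-mediated decay transcript EIF4A2-202 had 17856 and 18093 counts in deprived against 4181 and 3819 in control libraries, while its retained-intron transcript EIF4A2-219 was level at 116 and 117 CPM in deprived and 112 and 123 CPM in control libraries. The higher total of EIF4A2 thus sat on transcripts not annotated to make the protein, and with coding transcripts only it was not called (0.88, edgeR adjusted p = 0.121).

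The split of EEF1A1 between transcripts differed as much between replicates as between groups. EEF1A1-201 had 398427 and 20646 counts in deprived and 85118 and 232984 in control libraries, and EEF1A1-202 had 544555 and 858391 in deprived and 686820 and 652095 in control libraries. No direction can be read from that split. In EIF4G2 the groups overlapped for EIF4G2-201, at 1254 and 339 CPM in deprived and 569 and 161 CPM in control libraries. They lay apart for EIF4G2-202, at 873 and 1013 CPM in deprived against 479 and 755 CPM in control libraries. A further coding transcript, EIF4G2-205, was at 11.2 and 34.4 CPM in deprived and 562 and 14.6 CPM in control libraries. The split of EIF4G2 thus also differed between the control replicates, and no direction can be read from it.

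**Figure D4:**
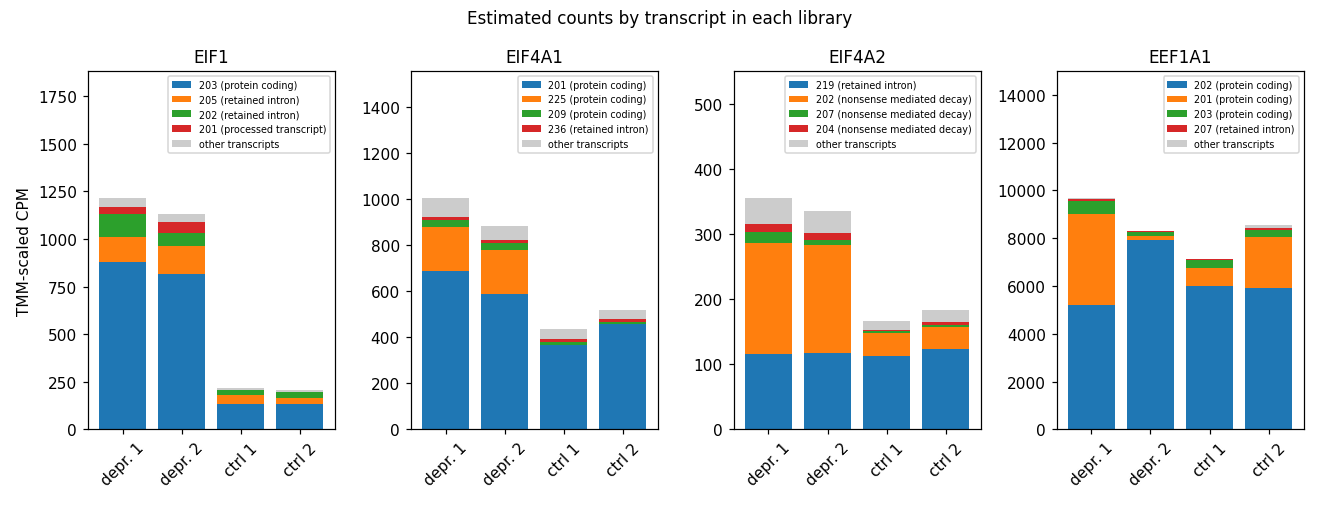
TMM-scaled CPM by transcript (stacked colours, with transcript number and type in each legend) in the 2 deprived and 2 control libraries for EIF1, EIF4A1, EIF4A2 and EEF1A1. EIF1-203 makes up most of the EIF1 bars, EIF4A1-225 and EIF4A2-202 stand out in the deprived bars, and the blue and orange parts of EEF1A1 trade places between replicates of a group.

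Transcript starts are shown here because a pyrimidine run at the cap, the 5' TOP motif, marks mRNAs of the translation machinery. RefSeq gives windows on GRCh38.p14 of 250 bases before and 50 after a start for 53 members (70 windows). A start with C followed by at least 4 further C or T on the coding strand was found in 13 of the 70 windows (18.6%), against 4.07% of 35116 windows of all genes. Below, 20 bases before and 20 from the annotated start on are given in coding direction, with the pyrimidine run in capitals. They cover EEF1A1 (chr6:73521013-73521052, minus strand), EEF1B2 (chr2:206159875-206159914, plus), EEF2 (chr19:3985444-3985483, minus), EIF4B (chr12:53006436-53006475, plus), EIF2S3 (chrX:24054936-24054975, plus), EIF3D (chr22:36529147-36529186, minus) and EIF3K (chr19:38619168-38619207, plus).
EEF1A1: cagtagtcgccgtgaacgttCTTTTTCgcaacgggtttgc
EEF1B2: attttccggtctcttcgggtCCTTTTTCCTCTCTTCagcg
EEF2: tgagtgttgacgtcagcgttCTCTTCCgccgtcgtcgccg
EIF4B: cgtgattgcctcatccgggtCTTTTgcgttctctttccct
EIF2S3: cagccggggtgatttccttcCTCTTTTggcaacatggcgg
EIF3D: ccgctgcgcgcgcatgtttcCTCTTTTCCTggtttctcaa
EIF3K: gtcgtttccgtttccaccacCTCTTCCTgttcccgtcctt

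Members with such a start were called higher more often than lower, as were all 62 tested members (35 higher and 8 lower). Of the 13, 7 were higher (EEF1B2, EIF2A, EIF2S3, EIF3D, EIF3F, EIF3M and EIF4A2), EIF3K was lower, and EEF1A1, EEF2, EIF2D, EIF2S3B and EIF4B were not called by edgeR, whereas DESeq2 and limma-voom called EEF2 and EIF4B higher. Of 9 members known as 5' TOP mRNAs, 3 were higher and 1 lower with a median log2 fold change of 0.20, beside 32 higher and 7 lower of the other 53 tested members with a median of 0.43. With library size only 2 of the 5' TOP members were higher and 2 lower with a median of -0.14, beside 21 higher and 11 lower of the others with a median of 0.09.

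The letters CACGTG, the E-box bound by MYC and by TFEB-type factors, which read the same on both strands, were in 14 of the 70 member windows (20%) and in 7.26% of all windows. EEF1AKMT4 and the read-through gene EEF1AKMT4-ECE2 have the same window, which is counted for both. Of the 13 tested genes with this match 6 were higher, 4 lower and 3 not called. These shares were near the 46.3% higher and 28.5% lower of all protein-coding genes of at least 10 CPM. Both the largest decrease of the members and several increases are among the 13. The matches with 9 bases on either side are shown for 2 of the genes called higher and 2 called lower, with CACGTG in capitals: EIF5A2 (chr3:170908810-170908833, minus strand), EIF4E (chr4:98929344-98929367, minus), EEFSEC (chr3:128153271-128153294, plus) and EEF2K (chr16:22206210-22206233, plus).
EIF5A2: aatccgcagCACGTGgggttgcca
EIF4E: cccatcggcCACGTGaccagtcct
EEFSEC: aggaggagcCACGTGagagagaaa
EEF2K: gggggcggcCACGTGagcgccacg
The element TGATGNAA, bound by dimers of C/EBP with ATF4 and searched on both strands, was in 1 member window (EIF4E3), 1.43% against 3.62% of all windows. A match is a description of these letters only, and the motifs do not overlap one another.

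Genes that work with the factors were taken from lists chosen with earlier results of these data known. All 8 termination, recycling and rescue factors were higher, beside 46.3% of protein-coding genes of at least 10 CPM. Their median log2 fold change was 0.86, and 5 were higher with library size only. GSPT2, a GTPase of termination, was at 45.6 and 41.7 CPM in deprived against 19.9 and 20.2 CPM in control libraries (1.12 ± 0.08). ETF1, the factor that reads stop codons, was higher by 0.96 ± 0.08, and DENR, which recycles the small subunit, by 0.88 ± 0.06.

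Of 17 regulators of eIF4F and poly(A)-binding proteins 9 were higher and 5 lower, with a median log2 fold change of 0.31, and with library size only 4 were higher and 6 lower with a median of -0.03. PAIP2, which sequesters the poly(A)-binding protein, was at 75.5 and 76.6 CPM in deprived and 32.6 and 33.9 CPM in control libraries (1.19 ± 0.07). EIF4EBP2, which holds EIF4E away from EIF4G, fell to 66.3 and 66.4 CPM in deprived libraries, against 131 and 124 CPM in control libraries (-0.94 ± 0.07). The poly(A)-binding protein gene PABPC4 was lower by a similar amount (-0.88 ± 0.07). PABPC1, a more abundant poly(A)-binding protein gene, was higher, at 599 and 564 CPM in deprived against 366 and 356 CPM in control libraries (0.69 ± 0.08).

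Among 7 eIF2 kinases and phosphatase subunits 4 were higher and 1 lower (3 and 2 with library size only). PPP1R15A, the stress-induced subunit that directs phosphatase to eIF2, was at 566 and 471 CPM in deprived against 13.1 and 14.1 CPM in control libraries (log2 fold change 5.25 ± 0.13), beside 0.90 for its target EIF2S1. Its constitutive relative PPP1R15B was higher by 2.29 ± 0.08 and the kinase gene EIF2AK3 by 0.71 ± 0.07.

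The enzymes that make hypusine on eIF5A and diphthamide on eEF2 had 5 of 9 genes higher and none lower, beside 46.3% higher of protein-coding genes of at least 10 CPM. They were led by DPH3 at 141 and 131 CPM in deprived against 44.3 and 51.9 CPM in control libraries (edgeR adjusted p = 8.48e-05). The hypusine enzyme DOHH was higher by 1.24 ± 0.16 and the diphthamide factor DNAJC24 by 0.76 ± 0.09. With library size only 4 were higher and 3 lower. With coding transcripts only the 5 higher genes kept their calls, while DPH2 (-0.70, edgeR adjusted p = 0.00666) and DPH7 (-0.53, edgeR adjusted p = 0.0240) were lower. Of 5 eIF5 mimics and initiation helicases, BZW1 (0.78 ± 0.09), ABCF1 (0.58 ± 0.08) and DHX29 were higher while BZW2 (-0.70 ± 0.10) and DDX3X were lower. With library size only BZW1 alone was higher, and with coding transcripts only ABCF1 was at -0.34 and DDX3X at 0.09, neither of them called.

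Of 12 factors of mitochondrial translation 5 were higher and 1 lower, with a median log2 fold change of 0.14, and with library size only 3 were higher and 5 lower with a median of -0.19. GFM1, the mitochondrial elongation factor G, was at 271 and 267 CPM in deprived against 125 and 135 CPM in control libraries (1.05 ± 0.07), MTRF1L was higher by 0.86 ± 0.08 and MTFMT, which formylates initiator tRNA, was lower (-0.70 ± 0.10). Of 81 cytosolic ribosomal protein genes 57 were higher and 1 (RPS24) lower with a median of 0.55, beside 46.3% higher of protein-coding genes of at least 10 CPM. With library size only 25 were higher and 9 lower. The decrease of RPS24 (-0.34) did not hold with coding transcripts only, where it was at 1.035 and not called (edgeR adjusted p = 0.120).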

How the data were processed

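The authors deposited 1 file per library in which, per the file headers, a whole number of counts stands for each transcript. These deposited values were treated as estimated counts: of 499 pairs in control replicate 1 in which a transcript of 100 counts or more has all its exons within a longer one, 311 (62.3%) gave the longer one fewer. The submitters' processing notes name DESeq2 1.20.0, HISAT2 2.0.5 and featureCounts 1.5.0-p3 with the build hg38, without saying which gave these values. Which program divided the reads among transcripts, with which annotation and strand setting, is not given in the sources used here.

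Counts were summed to genes by Ensembl ID with GENCODE release 29 (GRCh38), which matched 205306 of 229420 transcript IDs and 98.0% to 98.2% of the counts of a library. The unmatched IDs were left out. Genes were filtered with filterByExpr, scaled with TMM (factors 0.862 and 0.919 in deprived, 1.15 and 1.10 in control libraries) and tested two-sided with edgeR 4.0.16 (glmQLFit and glmQLFTest) in R 4.3.3. Calls use a Benjamini-Hochberg adjusted p under 0.05 over all 24527 genes, and an SE is the log2 fold change over the root of its F. The common biological coefficient of variation was 0.21. Replicates differed by far more than sampling noise (chi-square per degree of freedom 43.6 in deprived and 31 in control libraries). The test was tried on simulated counts with known changes. Those counts had less spread and far fewer changed genes than these data, so the trial cannot vouch for the calls.

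TPM were computed from the counts and transcript lengths. Values in every library were given by rule for the up to 10 largest called increases and decreases of at least 10 CPM. By rule they were also given for 17 genes named by role, such as EIF1, EIF2S1, EIF4E and EEF2K. Such values of EIF2B2, EIF2D, EIF3D, EIF3H, EIF3L, EIF4H and EEF1G were printed outside these rules. Partner lists give the 3 genes of smallest p. PABPC1, DHX29, DDX3X, DPH2, DPH7, RPS24, SENP3-EIF4A1, DDX55, SPG11, HBA1 and HBB were named after their values were seen. Members, gene lists and tests were chosen with earlier results of these data known. Alternatives were RLE and upper-quartile scaling, library size only, no filter, at least 50 counts in 2 libraries, DESeq2 1.42.0, limma-voom 3.58.1, coding transcripts only, near-identical copies added, each library left out, the replicate number as a block and, chosen after seeing the data, same-strand overlapping genes added. The authors' table of long non-coding RNAs holds no member and was not used.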

Additional observations from a re-analysis of the deposited data

How the results depend on the processing

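With library size only, 23 members were called higher and 13 lower, 4 were higher by at least 2-fold and the median log2 fold change of the members was 0.0817. EIF5B reversed to -0.0093 in that setting (edgeR adjusted p = 0.947). With coding transcripts only, 6 members were higher by at least 2-fold. Leaving out 1 library at a time gave 30 to 36 members higher, 5 to 8 lower (5 without control replicate 2), 9 to 14 higher by at least 2-fold, 2 lower by at least 2-fold and a median of 0.36 to 0.53. With 1 library in a group, its spread is taken to be that of the other group. The share of counts held by the members, deprived minus control, ranged from 0.0106 to 0.145 percentage points. The other alternatives kept the counts of members within 1.5 times. In all, 24 values of 14 uncalled members changed sign, most with library size only.

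Replicate numbers did not pair the libraries (correlation of deviations -0.02), and with the replicate block 34 members were higher and 6 lower. The block ended the calls of EEF1AKMT2, EIF3E and EIF4G1.

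With 2 libraries a group an exact permutation test of a single value cannot reach the threshold, so tests rest on the spread shared over genes. Estimated counts limit what can be said of single transcripts, and unmatched transcripts leave EIF3F, EIF2B5, EIF4A3 and EIF4G2 as partial sums.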

Other observations

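Several members share exon bases with a gene on the opposite strand that itself differed between the groups. UTP23, a ribosome biogenesis factor that overlaps EIF3H by 110 bases, was at 123 and 117 CPM in deprived and 28.8 and 30.2 CPM in control libraries, while EIF3H was at 200 and 173 CPM in deprived and 161 and 175 CPM in control libraries. ALG1, which overlaps EEF2KMT by 915 bases, was at 39.8 and 33.6 CPM in deprived against 81.1 and 82.1 CPM in control libraries. SERP1, which overlaps EIF2A, was at 314 and 308 CPM in deprived against 118 and 126 CPM in control libraries. In these examples, chosen after their values were seen, EIF3H and EEF2KMT were not called and EIF2A was higher. The part of overlapping reads was not tested.

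Within EIF2A, 2 of the coding transcripts lay apart between the groups. EIF2A-206 had 0 CPM in both deprived and 10.5 and 16.2 CPM in the control libraries, and EIF2A-214 was at 42.2 and 58.5 CPM in deprived against 4.05 and 19.4 CPM in control libraries. The groups overlapped for EIF2A-203, at 116 and 46.4 CPM in deprived and 62.0 and 46.0 CPM in control libraries, and for EIF2A-201, at 0 and 15.8 CPM in deprived and 0 and 1.45 CPM in control libraries. A retained-intron transcript of EIF2B2, EIF2B2-203, made up 8.62% and 8.41% of that gene in deprived and 2.59% and 2.50% in control libraries.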
